A study of Mus musculus with 12 samples.

Results

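The HtrA family comprises 4 serine protease genes in the mouse, Htra1, Htra2, Htra3 and Htra4, and all 4 were measured here among 19505 named genes. They were chosen by name, and the family was taken up because Htra1 was lower in the annulus fibrosus of TonEBP +/- mice, so that difference is described without a test. Each gene had a single probe set on the array, so the rule of taking the probe set with the highest mean had nothing to decide. The annulus fibrosus (AF) is the fibrous outer ring of the intervertebral disc and the nucleus pulposus (NP) its gelatinous core. RNA came from lumbar discs (L1-S1) of C57BL/6 mice aged 12 months. The 4 groups were AF of wild-type (WT) mice, AF of TonEBP +/- mice, NP of WT mice and NP of TonEBP +/- mice, with 3 samples in each. A TonEBP +/- mouse lacks 1 copy of Nfat5, the gene of the osmolarity-responsive transcription factor TonEBP. Each sample was tissue pooled from a single animal, and the labels give neither the sex of the mice nor which AF and NP samples came from the same mouse.

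HtrA proteases carry a trypsin-like protease domain followed by a PDZ domain. HTRA1, HTRA3 and HTRA4 are secreted and begin with an IGFBP-like and a Kazal-like segment, while HTRA2 resides in the mitochondrial intermembrane space and, once released, binds inhibitors of apoptosis. HTRA1 cleaves matrix proteins such as fibronectin, aggrecan and fibromodulin and dampens TGF-beta signalling, and its loss in people causes a disorder of small brain vessels that includes disc degeneration.

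Promoter sequence was available for 2 of the 4 members, so the stretches just upstream of Htra1 and Htra3 are shown. They are credited to RefSeq, build GRCm38.p6. The Htra1 stretch lies at chr7:130935953-130936202 on the plus strand and the Htra3 stretch at chr5:35679814-35680030 on the minus strand. Bases of the Htra3 window that fall inside the annotated gene were left out, which gave 217 bases beside 250 for Htra1. Capitals mark a match, on either strand, to the letters GGAAA of the NFAT core, to the box CCAAT or to the GC box GGGCGG.
Htra1: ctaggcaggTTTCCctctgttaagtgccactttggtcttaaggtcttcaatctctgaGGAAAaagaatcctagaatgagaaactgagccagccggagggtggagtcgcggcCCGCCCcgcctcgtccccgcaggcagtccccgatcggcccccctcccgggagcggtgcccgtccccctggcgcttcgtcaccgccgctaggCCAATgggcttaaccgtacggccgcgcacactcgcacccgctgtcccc
Htra3: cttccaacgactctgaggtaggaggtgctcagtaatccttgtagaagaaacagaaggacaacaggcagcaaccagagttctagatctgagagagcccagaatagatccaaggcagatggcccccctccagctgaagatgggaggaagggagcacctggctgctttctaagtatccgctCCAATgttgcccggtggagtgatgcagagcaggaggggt

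The search covered 250 bases upstream of each start, on both strands. TGGAAA, the core of the tonicity element that TonEBP binds, was in neither window and in 18.6% of 32851 promoters. GGAAA, the core letters of the NFAT family, which TGGAAA contains, was in the Htra1 window at 2 positions (-241 and -193 from the start), in none of Htra3, and in 55.6% of promoters. CCAAT was in both windows, at -48 in Htra1 and -72 in Htra3, and in 33.8% of promoters. The GC box letters GGGCGG were in the Htra1 window at -139 and in 32.7% of promoters. GC content was 64.8% for Htra1 and 53.9% for Htra3.

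The median log2 signal of an array was 7.43 to 7.64 in AF and 6.82 to 6.87 in NP, and AF array 3 of TonEBP +/- had an interquartile range of 3.11 log2 against 2.36 to 2.66 on the other AF arrays. The interquartile range was 3.61 to 3.80 log2 on the NP arrays. Background was set for each array at the 95th percentile of its own 23 background probe sets, which came to 7.11 to 7.98 log2, and a higher signal is called above background. Of 10 NP and notochord markers, 6 to 7 were above background on each NP array, and in WT 6 were higher in NP than in AF (Cd24a, Cdh2, Krt8, Krt18, Krt19 and Shh) and 3 lower (Noto, and Car12 and Foxa2, which were above background on no array). Of 9 AF and tendon markers, 5 were above background on each AF array (Col1a1, Col1a2, Lum, Thbs4 and Tnc) and the other 4, Scx, Mkx, Tnmd and Kera, on none. In WT 7 were lower in NP than in AF, Tnmd and Kera among them, and 1, Scx, was higher. Beside both marker lists, 22.2% of all clusters were called higher in NP of WT and 56.1% lower. On each AF array 12 to 13 of 13 neutrophil and myeloid precursor markers were above background, and 9 to 12 on each NP array. Their mean signal was 15.5 to 17.2 log2 on the AF arrays. Nfat5 itself averaged 8.77 log2 in AF of WT and 8.86 in AF of TonEBP +/-, and 8.75 and 9.26 in NP. Its difference between genotypes did not pass in AF (0.09, 95% CI -0.77 to 0.94, limma adjusted p = 0.923) or in NP (0.50, 95% CI -0.35 to 1.36, limma adjusted p = 1.0). The position of its probes relative to the deletion is not given in the sources used here, so these values do not check the labels.

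Htra1, a secreted protease of the extracellular matrix, was high in NP, lower in AF of WT and lowest in AF of TonEBP +/-. In AF of WT mice its log2 signal was 14.55, 13.9 and 14.12, and in AF of TonEBP +/- mice 11.05, 11.55 and 11.87. The WT arrays of NP gave 18.29, 18.35 and 18.41, and the TonEBP +/- arrays of NP 18.42, 18.52 and 18.54. All 3 AF arrays of TonEBP +/- lay below all 3 of WT, and all 6 NP arrays lay above every AF array. The AF mean was 11.49 ± 0.41 (SD, n = 3) in TonEBP +/- against 14.19 ± 0.33 (SD, n = 3) in WT, a difference of -2.70 log2, or 6.51-fold, which chose the gene. Leaving out any 1 array gave -2.89 to -2.48. The same measure in NP, which played no part in the choice, was 18.49 ± 0.07 against 18.35 ± 0.06 (SD, n = 3 each). That is a difference of 0.15 log2 (SE 0.245, 95% CI -0.37 to 0.67, limma adjusted p = 1.0), so a fall in NP as large as the one in AF lies outside the interval. The SE is shared over all 12 arrays, so the AF arrays, which spread more than those of NP, enter it and widen the interval. With the 6 NP arrays alone the difference did not pass either (limma adjusted p = 0.958). The NP arrays of the genotypes did not overlap, but the difference was 1.11-fold, and an exact two-sided permutation test gave p = 0.1, the smallest that 3 against 3 allows.

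From highest to lowest, Htra1 stood at NP of TonEBP +/-, NP of WT, AF of WT and AF of TonEBP +/-. The NP groups did not differ beyond the spread shared over the arrays. The other steps in that order use the AF arrays that chose the gene and are given as values only. NP exceeded AF by 4.15 log2 in WT (17.8-fold) and by 7.00 in TonEBP +/- (128-fold). Over all 22206 clusters tested the median difference between NP and AF was -0.84 log2 in WT and -0.75 in TonEBP +/-, so relative to it Htra1 was higher in NP by 4.99 and 7.75. The AF arrays that chose the gene enter both values, so they are given without a test. The highest value in the table was 19.9 log2, which was the maximum of every NP array, and the lowest NP signal of Htra1 was 18.29. Whether differences are compressed near that value was not tested.

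**Figure D1:**
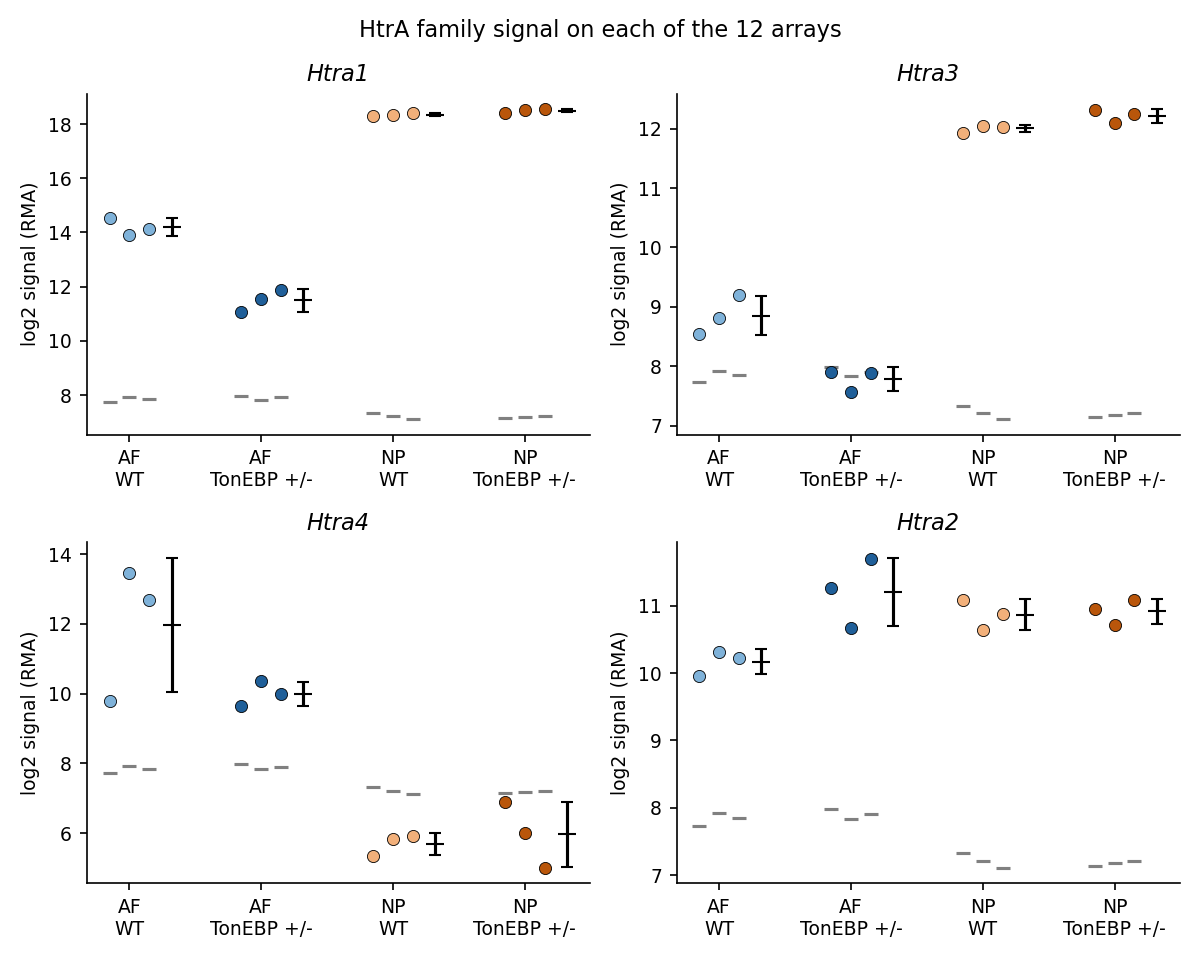
Log2 signal (RMA) of Htra1, Htra3, Htra4 and Htra2 on each of 12 arrays, by tissue and genotype. Points are arrays, black marks the mean and SD of 3 arrays, and grey dashes each array's background level; Htra1 and Htra3 are highest in NP and lowest in AF of TonEBP +/-, while Htra4 is below background on all 6 NP arrays.

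Htra3, a secreted relative that also binds TGF-beta family ligands, had the profile nearest to Htra1 within the family. Its signal in AF was 8.54, 8.81 and 9.2 log2 for WT, and 7.91, 7.56 and 7.89 for TonEBP +/-. NP arrays gave 11.93, 12.05 and 12.03 for WT, with 12.31, 12.09 and 12.25 for TonEBP +/-. The genotypes did not overlap in either tissue, with TonEBP +/- lower in AF and higher in NP. In AF of TonEBP +/- no array was above background, so the AF difference (means 7.79 ± 0.20 and 8.85 ± 0.33 log2, SD, n = 3) is at least 1.92-fold against the background level. In NP the difference was 0.22 log2 (SE 0.224, 95% CI -0.26 to 0.69, limma adjusted p = 1.0; exact permutation p = 0.1). NP exceeded AF by 3.15 log2 in WT (8.89-fold, SE 0.224, limma adjusted p = 1.5e-08) and by at least 19.8-fold in TonEBP +/- (adjusted p = 2.25e-10). The groups stood in the same order as for Htra1. The NP groups, next to each other in it, did not differ beyond the spread shared over all 12 arrays, which the AF arrays enter. With the 6 NP arrays alone the difference did not pass either (limma adjusted p = 0.935).

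Htra4, the third secreted member, ran the other way between the tissues. In AF of WT its log2 signal was 9.78, 13.45 and 12.68, and in AF of TonEBP +/- 9.66, 10.35 and 10.0. All 6 NP arrays lay between 5.01 and 6.88 and none was above background. The AF genotypes overlapped through WT array 1, which sat with the TonEBP +/- arrays. The mean was 11.97 ± 1.94 in WT and 10.01 ± 0.34 in TonEBP +/- (SD, n = 3), a difference of -1.96 log2. That value was -3.06 without WT array 1 and -1.22 without WT array 2, so single WT arrays set its size. AF exceeded NP by at least 27.0-fold in WT (limma adjusted p = 9.61e-07) and at least 7.09-fold in TonEBP +/- (adjusted p = 6.56e-05), against the background level of the NP arrays. No fold between genotypes is given in NP, where both groups were below background (limma adjusted p = 1.0).

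Htra2, the mitochondrial member, varied least. Its signal in AF was 9.96, 10.32 and 10.22 log2 for WT, and 11.26, 10.67 and 11.69 for TonEBP +/-. NP arrays gave 11.09, 10.64 and 10.88 for WT, with 10.96, 10.72 and 11.08 for TonEBP +/-. TonEBP +/- arrays were all above WT in AF (means 11.21 ± 0.51 and 10.17 ± 0.18, SD, n = 3; 1.04 log2, 2.05-fold), in the direction opposite to Htra1. The genotypes overlapped in NP (0.05 log2, SE 0.260, 95% CI -0.50 to 0.60, limma adjusted p = 1.0). NP exceeded AF in WT by 0.70 log2 (SE 0.260, limma adjusted p = 0.0215), which lost its call without AF WT array 1 (0.60, adjusted p = 0.0758) or NP WT array 1 (0.59, 0.0822) and with quantile normalization (0.12, 0.662). In TonEBP +/- the tissue difference was -0.29 (SE 0.260, adjusted p = 0.327). It was 0.40 with array medians subtracted and -0.76 with quantile normalization, where it passed (adjusted p = 0.0102), so its direction depends on the scaling.

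Across the family, 0 of 4 members passed in NP between genotypes (limma; 0 of 4 at an unadjusted p under 0.05), where 0.113% of all clusters were called. The genotypes did not overlap in NP for 2 of 4 members, against 11.3% of clusters. In AF they did not overlap for 3 of 4, 2 lower and 1 higher, against 22.3% of clusters. The AF values of Htra1 led to the choice of the family, so nothing is read from that count. Between tissues, 3 of 3 members tested passed in WT and 2 of 3 in TonEBP +/-, where 78.3% and 74.3% of clusters did. Of the clusters called between tissues, 28.3% were higher in NP in WT and 26.9% in TonEBP +/-, but 51.8% and 54.9% with array medians subtracted and 49.8% and 50.5% with quantile normalization. Of those called between genotypes in AF, 45.4% were higher in TonEBP +/-, and 55.9% with array medians subtracted. In these bulk samples, fewer cells of a type and less RNA per cell cannot be told apart.

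**Figure D2:**
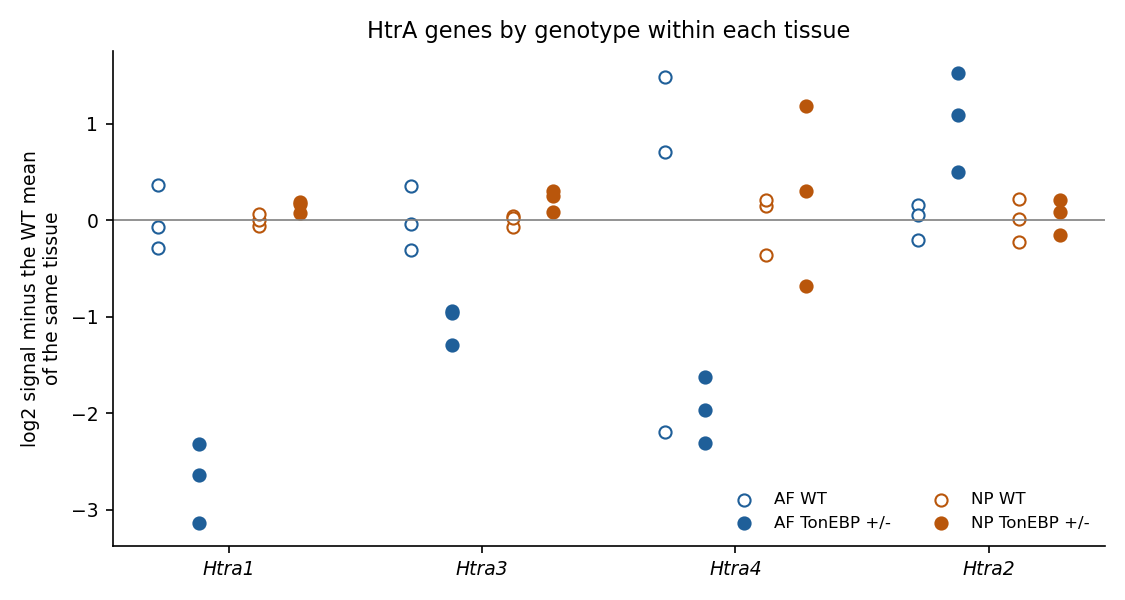
Log2 signal of each HtrA gene on every array after the WT mean of the same tissue was subtracted (y axis, log2). Open points are WT and filled points TonEBP +/-, 3 arrays each; the filled AF points of Htra1 lie furthest below the line, those of Htra2 above it, and 1 open AF point of Htra4 sits among the filled ones.

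The likeness of profiles was measured as the root mean square (RMS) difference, over 12 arrays, between 2 genes' log2 signals after each was centred on its own mean. Htra1 and Htra3 differed by 1.11 log2, where their own spreads around their means were 2.96 and 1.94. Htra1 and Htra4 differed by 5.47, Htra3 and Htra4 by 4.56, Htra1 and Htra2 by 3.01, Htra2 and Htra3 by 1.95, and Htra2 and Htra4 by 3.03. Arrays share tissue, and the tissue difference dominates these values.

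Among 9251 other named probe sets above background on at least 6 arrays, the profile nearest to Htra1 was that of Smoc1, a secreted calcium-binding matrix protein (RMS difference 0.47 log2). Its means were 10.05 in AF of WT, 8.39 in AF of TonEBP +/-, 14.52 in NP of WT and 14.84 in NP of TonEBP +/-. Cpm, a membrane carboxypeptidase (0.51), Ndufa4l2, a hypoxia-responsive mitochondrial gene (0.52), the cytolinker Dst (0.60) and the phosphatase relative Mtmr10 (0.62) came next. Then followed the collagen-binding proteoglycan Fmod (0.67), the ion transport regulator Fxyd6 (0.67) and the transcription regulator Id4 (0.68). The difference of TonEBP +/- from WT in AF ran from -2.11 (Ndufa4l2) to -1.20 log2 (Mtmr10) in these 8 genes, less than that of Htra1. In NP it ran from -0.56 (Id4) to 0.53 (Mtmr10). Over the 6 AF arrays alone, the nearest were Ndufa4l2 (0.37), the LIM-domain gene Fhl1 (0.48), Cpm (0.54) and Acan, the aggrecan core protein (0.54). These lists were ranked on the values that show the pattern, so they describe it and carry no test.

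**Figure D3:**
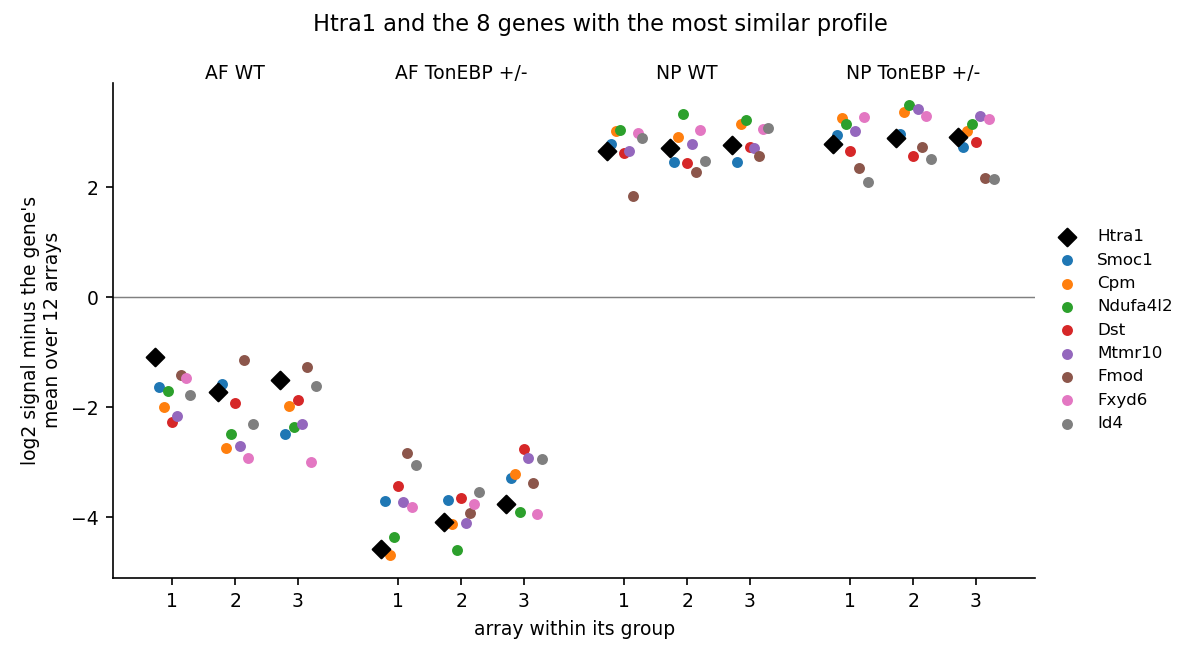
Log2 signal minus each gene's mean over 12 arrays (y axis) for Htra1 (black diamonds) and the 8 genes with the smallest RMS difference from it, by array within the 4 groups (x axis). Each gene is highest in NP and lowest in AF of TonEBP +/-; the points of AF of WT lie between these groups.

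The genes nearest to Htra3 were Nfix, a transcription factor (0.23 log2), Fzd7, a Wnt receptor (0.25), Tspan3, a tetraspanin (0.26), and Ppfibp1, a liprin (0.28). For Htra4 they were further off: Vcan, a large matrix proteoglycan (0.80), Frzb, a secreted Wnt antagonist (0.95), the small proteoglycan Omd (0.96) and Bgn (1.01). For Htra2 they were Patl1, an mRNA decay factor (0.17), the kinase Rock1 (0.18), the proteasome subunit Psmb1 (0.18) and Txnl4b (0.19), beside a spread of 0.46 for Htra2 itself. Some of these likenesses rest in part on signals below background. Htra3 was below it in AF of TonEBP +/- and Htra4 in NP. The means of Ppfibp1 in AF were 5.95 (WT) and 5.31 log2 (TonEBP +/-). In NP those of Frzb were 5.58 and 5.24, and those of Omd 4.27 and 4.87.

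Genes of proteins that HTRA1 is reported to cleave included several that fell in AF together with the protease. This list, like the others, was chosen with earlier results of these data known, so its count is descriptive. Fmod and Acan were also among the genes nearest to Htra1 in profile. Of 15 listed, 4 fell and 0 rose in AF of TonEBP +/- by limma (6 at an unadjusted p under 0.05), where 6.07% of clusters were called, 3.31% lower and 2.76% higher. Among the 12290 clusters above background on at least 3 arrays 1494 were called, a larger share. The same holds beside the AF counts of the lists that follow. The median of the substrate list was -1.06 log2 against -0.04 over all clusters. Sorted by size, the WT arrays gave 14.51, 14.65 and 14.78 for Fmod, against 12.00, 12.55 and 13.08 for TonEBP +/- (-2.11 log2, SE 0.284, limma adjusted p = 0.00451). Acan was 16.44, 16.69 and 16.71 against 14.47, 14.50 and 14.76 (-2.03, SE 0.204, limma adjusted p = 0.000331). In both genes the genotypes were far apart beside the spread within them. Clu, the extracellular chaperone clusterin, was 12.83, 14.69 and 14.78 against 12.06, 12.57 and 12.62 (-1.68, SE 0.389, limma adjusted p = 0.026). Fn1, fibronectin, the fourth gene called here, which the naming rule reached through the difference of the genotype effects between tissues, was 17.04, 17.77 and 17.98 against 15.81, 15.95 and 16.31 (-1.57, SE 0.261, limma adjusted p = 0.0109). Clu was not called without AF WT array 2 (-1.34, adjusted p = 0.101), WT array 3 (-1.38, 0.0799), TonEBP +/- array 1 (-1.50, 0.0815) or TonEBP +/- array 3 (-1.78, 0.0791). With the 6 AF arrays alone, Acan kept its call, and Fmod (adjusted p = 0.0961), Fn1 (0.102) and Clu (0.128) did not.

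The other substrates did not pass in AF. The small proteoglycan Dcn was at -1.17 log2 (limma adjusted p = 0.474), the cartilage oligomeric matrix protein gene Comp at -1.37 (0.294), the thrombospondin Thbs1 at -1.31 (0.399) and Bgn at 0.08 (0.905). In NP 0 of 15 passed in either direction (limma, 0 at an unadjusted p under 0.05), where 0.113% of clusters were called. The median of the list in NP was 0.12 against 0.01 over all clusters. The genotype difference itself differed between the tissues for Fmod (-2.28 log2, SE 0.401, limma adjusted p = 0.0173), Acan (-2.13, SE 0.288, 0.00687) and Fn1 (-1.89, SE 0.370, 0.0267), 3 of 15, where 0.887% of clusters were called either way and 0.122% in that direction. It did not pass for Clu (-1.61, adjusted p = 0.181). Only Acan kept this call in every omission of 1 array. Fmod lost it in 4 of 12 omissions (AF WT array 2, NP WT arrays 1 and 2, NP TonEBP +/- array 2; adjusted p 0.0542 to 0.0637) and Fn1 in 8 of 12 (all but AF WT array 1, AF TonEBP +/- array 2, NP WT array 3 and NP TonEBP +/- array 3; adjusted p up to 0.0871).

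**Figure D4:**
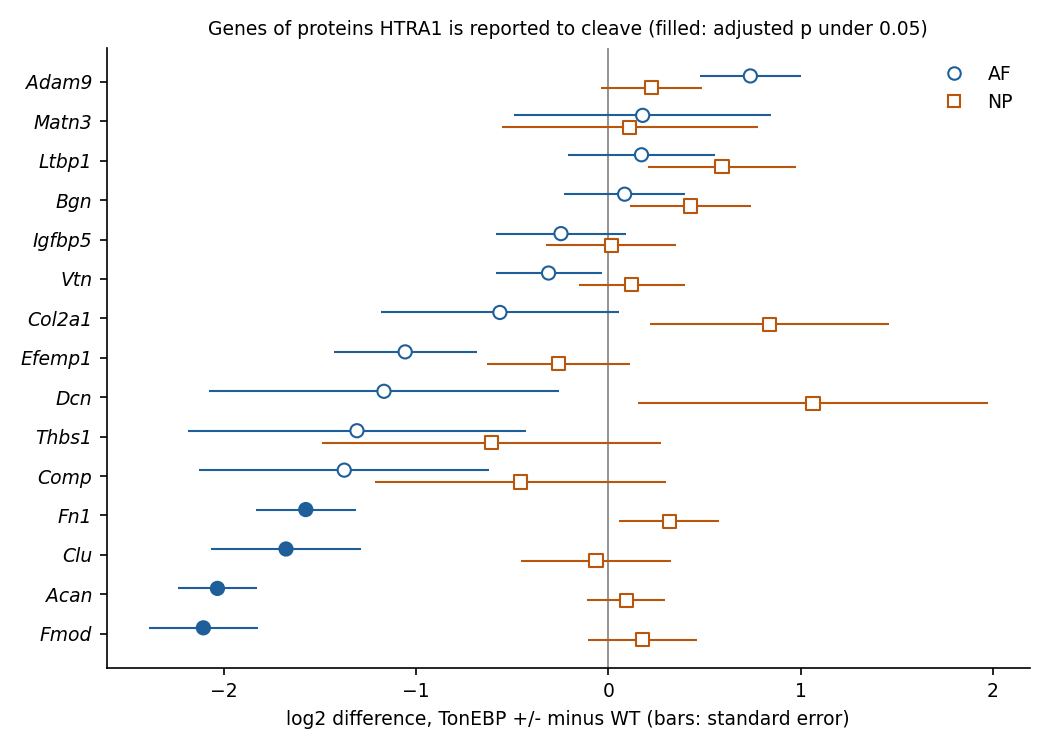
Log2 difference, TonEBP +/- minus WT, with its standard error (x axis) for 15 genes of proteins reported as HTRA1 substrates, in AF (circles) and NP (squares). Filled symbols had a limma adjusted p under 0.05; they are Fmod, Acan, Clu and Fn1 in AF and none in NP.

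Between tissues the substrates divided. In WT, 5 of 15 were higher in NP and 8 lower, where 22.2% and 56.1% of clusters were called. Ltbp1, a latent TGF-beta binding protein, was higher by 4.04 log2, Fmod by 3.51 and Acan by 2.76, with Clu at 1.70 and Fn1 at 1.12. As NP minus AF, Dcn was at -9.93, Comp at -8.38 and Thbs1 at -7.87 log2. The 4 substrates that fell in AF of TonEBP +/- were thus among the 5 higher in NP of WT, as Htra1 was. Both comparisons use the AF arrays of WT, so they are set side by side without a test of their relation. In TonEBP +/-, 6 were higher in NP and 8 lower, where 20% and 54.4% of clusters were called. The difference was 5.79 for Fmod, 4.89 for Acan, 3.32 for Clu and 3.01 for Fn1. The shares for both genotypes cover all clusters and depend on which are counted. Among the 12290 clusters above background on at least 3 arrays, 51.5% of those called in WT were higher in NP, and 47.6% in TonEBP +/-. In NP the signals of Acan reached 19.5 log2, near the highest value in the table.

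TGF-beta family ligands and receptors, whose signalling HTRA1 and HTRA3 are known to dampen, had 0 of 18 called in AF (limma, 4 at an unadjusted p under 0.05). In NP 0 of 18 were called (limma, 1 unadjusted). Over all clusters 6.07% were called in AF and 0.113% in NP, so counts of 0 say little about a list this short. The medians of the list were -0.23 in AF and 0.04 log2 in NP. Tgfb1 was at 0.65 in AF (limma adjusted p = 0.128) and -0.68 in NP (1.0), and the co-receptor Tgfbr3 at -1.20 in AF (0.0937). Between tissues of WT, 7 of 18 were higher and 7 lower in NP, where 22.2% and 56.1% of clusters were called. Both shares depend on which clusters are counted, as given for the substrates. The receptor Tgfbr2 was higher by 2.54 log2 and the ligand Tgfb2 by 2.38, Bmp7 by at least 2.31, and Tgfb1 was at -3.57. Of 12 TGF-beta response genes measured, 1 rose and 0 fell in AF, where 2.76% and 3.31% of clusters were called, and their median was 0.05 log2. This was Postn, the matricellular protein periostin, above background on no WT array and higher by at least 0.62 log2 (limma adjusted p = 0.0213). Its call was lost without AF WT array 1 (adjusted p = 0.0679), WT array 3 (0.0525), TonEBP +/- array 1 (0.0681) or array 3 (0.0751), and with the 6 AF arrays alone (0.110). In NP 0 of 12 passed (limma, 1 unadjusted), where 0.113% of clusters were called, with Ccn2, a matricellular growth factor, at 1.43 log2 (adjusted p = 1.0).

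Genes of other proteins with an IGFBP domain, which HTRA1, HTRA3 and HTRA4 carry as well, had 2 of 14 called higher in AF and 0 lower, where 2.76% and 3.31% of clusters were called; the median of the list was -0.27 log2 against -0.04 over all clusters. Igfbp4, a carrier of insulin-like growth factors, rose by 1.01 log2 (SE 0.251, limma adjusted p = 0.0313). Esm1 was above background on no AF array, so no change is given for it. The call of Igfbp4 was lost in 5 omissions (AF WT arrays 1, 2 and 3, TonEBP +/- arrays 1 and 3; adjusted p 0.0504 to 0.125) and with the 6 AF arrays alone (0.143). In NP 0 of 14 passed (limma, 1 unadjusted), where 0.113% of clusters were called.

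Around HTRA2, 2 of 12 measured partners in apoptosis and mitochondria rose in AF and 0 fell, where 2.76% and 3.31% of clusters were called, with a median of 0.60 log2 against -0.04 over all clusters. Birc3, an inhibitor of apoptosis, rose by 1.33 (SE 0.360, limma adjusted p = 0.0414) and Apaf1, the apoptosome scaffold, by 0.96 (SE 0.262, limma adjusted p = 0.0426). Birc3 kept its call in 3 of 12 omissions of 1 array (AF TonEBP +/- array 2, NP WT array 2 or NP TonEBP +/- array 2) and Apaf1 in 2 (AF TonEBP +/- array 2 or NP TonEBP +/- array 2). The other omissions gave adjusted p of up to 0.178 for Birc3 and 0.181 for Apaf1, and the 6 AF arrays alone 0.145 and 0.150, so neither was called there. The IAP gene Xiap was at 0.68 (adjusted p = 0.213) and Diablo, which antagonizes IAP proteins as HTRA2 does, at 0.35 (0.405). Of 9 mitochondrial quality-control proteases, 0 passed in AF (limma, 1 unadjusted), where 6.07% of clusters were called, and 0 in NP (limma, 0 unadjusted). In NP 0 of the 12 partners passed (limma, 0 unadjusted), where 0.113% of clusters were called.

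Marker lists of other cells also differed between genotypes in the same AF samples, where 2.76% of all clusters were called higher and 3.31% lower. These calls use a spread shared over both tissues. With the 6 AF arrays alone only 3 of all clusters were called either way, and calls of the marker lists are not given for that fit. The same holds for the AF calls of the marker lists that follow. Of 8 osteoblast and mineralisation markers 6 were called higher in AF of TonEBP +/- and 0 lower, and the mean signal of the list was 8.78 to 9.92 log2 on WT arrays and 10.2 to 11.2 on TonEBP +/- arrays. Of 9 AF and tendon markers 4 were called higher (Col1a1, Col1a2, Lum and Tnc) and 0 lower, with list means of 8.53 to 9.61 against 10.2 to 10.7. Of 13 neutrophil markers 4 were called higher and 0 lower (15.5 to 15.9 against 16.5 to 17.2), of 8 osteoclast markers 3 and 0 (7.36 to 8.91 against 9.41 to 10.6), of 10 macrophage markers 2 and 0 (7.78 to 8.07 against 8.20 to 9.17) and of 9 endothelial markers 1 and 0 (7.81 to 8.22 against 8.24 to 9.09). None of 7 erythroid markers (11.6 to 11.8 against 11.3 to 12.1) or 11 skeletal muscle markers (7.01 to 7.20 against 6.39 to 7.06) was called by limma (0 and 3 at an unadjusted p under 0.05). The list means did not overlap between genotypes for the first 6 of these lists and overlapped for the other two.

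Lists that mark NP and cartilage cells lay lower on some AF arrays of TonEBP +/-. The mean log2 signal of 10 NP and notochord markers was 9.22, 8.34 and 8.44 on AF WT arrays 1 to 3 and 8.12, 8.16 and 8.39 on AF TonEBP +/- arrays 1 to 3, with 1 marker called lower (Krt19) and 0 higher. Of these markers 6 to 7 exceeded background on each WT array and 3 to 6 on each TonEBP +/- array of AF. Without WT array 1, which had the highest level of these markers, the AF difference of Htra1 was -2.52. The 14 cartilage markers had mean signals of 11.1, 12.4 and 12.7 on AF WT arrays and 11.6, 11.4 and 10.9 on AF TonEBP +/- arrays, with Sox9 called lower and 0 higher. In NP the neutrophil markers had 11.1 to 12.6 in WT and 8.78 to 10.5 in TonEBP +/-, with 3 of 13 called lower, and the erythroid markers 8.00 to 9.14 and 6.78 to 6.94, with 2 of 7 called lower, where 0.113% of clusters were. With the 6 NP arrays alone 0 clusters were called, so these markers were not called there. The part of these cells in the differences of the HtrA genes was not tested.

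**Figure D5:**
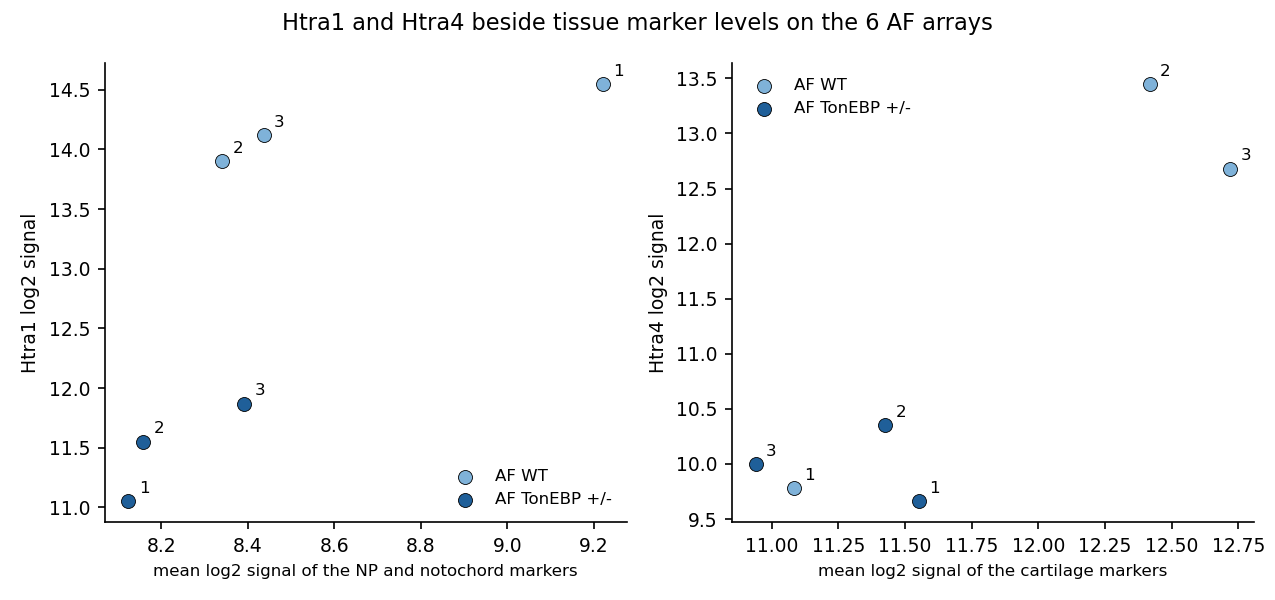
Htra1 against the mean of 10 NP and notochord markers (left) and Htra4 against the mean of 14 cartilage markers (right) on the 6 AF arrays, all in log2 signal, with array numbers beside the points. The NP and notochord markers lie between 8.12 and 9.22 and the cartilage markers between 10.9 and 12.7; WT array 1 is at the top of the left panel and among the TonEBP +/- arrays in the right panel.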

How the data were processed

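The deposited values are log2 signals made by the authors, 1 per probe set and array, with Affymetrix Expression Console and RMA, per the submitters' processing notes; versions, settings and which arrays were normalized together are not given in the sources used here. RMA corrects background, equalizes the signal distributions of arrays run together and summarizes probes. In the deposited values the medians and interquartile ranges still differed between arrays, also within AF. Differences between tissues therefore also depend on the scaling. Arrays were Clariom S Mouse, per the labels. Of 28846 probe sets, 22206 transcript clusters were tested and 6640 controls left out. Gene symbols were taken from the platform's annotation, updated through RefSeq gene IDs (GRCm38.p6): 19572 clusters had 1 symbol, 0 several and 2634 none.

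All 12 arrays were fitted together, each of the 4 groups with its own mean, in R 4.3.3 with limma 3.58.1 (8 residual and 7.93 prior degrees of freedom, no intensity trend), adjusted by Benjamini and Hochberg over all clusters and called at an adjusted p under 0.05. The estimate of the spread is shared over both tissues. P-values measure the spread between these animals. Members and the 16 gene lists (191 genes, 12 without a cluster) were chosen with earlier results of these data known. Named genes are the members, up to 3 called genes in each direction of each HtrA-related list, and the genes nearest in profile. Where 1 group was above background on no array, its level was set to the background level, a reading chosen with the data in view. No 2 arrays were duplicates (smallest SD of a difference 0.414 log2). The fit was also run on simulated arrays with independent errors and the same spread in both tissues. That run checks the code and not the calls made here. Figures used Python 3.11.15 and matplotlib 3.10.9.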

Additional observations from a re-analysis of the deposited data

Results flagged for a closer look

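For Htra1, all 3 TonEBP +/- arrays were below the WT arrays in AF and all 3 above them in NP, and the AF difference minus the NP difference was -2.85 log2. The NP difference alone did not pass (0.15 log2, 95% CI -0.37 to 0.67, limma adjusted p = 1.0), so no direction in NP is established. The arrays of Htra3 lay the same way, and the difference between tissues was -1.28 in the signals as measured. Its AF part is only a bound (at least 0.94 log2), because no AF array of TonEBP +/- was above background, and its NP part did not pass (0.22, 95% CI -0.26 to 0.69, limma adjusted p = 1.0). These differences between tissues were not tested, because they contain the AF values for which the family was taken up. By limma's interaction term, the genotype difference differed between AF and NP for Acan (-2.13), Fn1 (-1.89) and Fmod (-2.28), with adjusted p of 0.00687, 0.0267 and 0.0173.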

How the results depend on the processing

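No paired analysis was possible because the labels give no number that links AF and NP samples or mice of the 2 genotypes. Taking the mean of several probe sets was not run, since each member has 1. The count of clusters called between genotypes in NP was 25 and became 13 with array medians subtracted, 82 with array weights (estimated gene by gene), 0 with the 6 NP arrays alone and 2 to 79 with 1 array left out. In AF it was 1347, and 2815 with array weights, 3 with the 6 AF arrays alone and 81 to 4029 with 1 array left out. Between tissues it was 17387 in WT and 16510 in TonEBP +/-, and fell to 9023 and 8694 among clusters above background on at least 3 arrays and to 10866 in TonEBP +/- with quantile normalization. For the genotype effect between tissues it was 197, and 875 with array weights and 22 to 1319 with 1 array left out, and 86.3% of these calls were higher, against 75.4% with quantile normalization. With quantile normalization the measured signals of Htra3, below background in AF of TonEBP +/-, were at -1.39 log2 in AF and -1.56 for AF minus NP, and Htra1 at 3.85 and 7.35 for NP minus AF in WT and TonEBP +/- and -3.50 for AF minus NP. With array medians subtracted the tissue values of Htra1 were 4.89 and 7.69, and with array weights it was at 7.31 in TonEBP +/- and -3.12 for AF minus NP. Htra2 between tissues was 0.12 (WT) and -0.76 (TonEBP +/-) with quantile normalization and 0.40 (TonEBP +/-) with array medians subtracted, and 0.59 to 0.82 in WT with 1 array left out. In NP, Htra2 turned to -0.066 without NP WT array 2 and -0.033 without NP TonEBP +/- array 3 (range -0.066 to 0.16), and Htra4, below background there, to -0.20 without NP TonEBP +/- array 1 (range -0.20 to 0.74). The cause of these shifts was not tested. The number of arrays limits precision, and signals below background gave only bounds for Htra3 in AF and Htra4 in NP.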
